A study of Saccharomyces cerevisiae with 6 samples.

Results

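A set of 75 open reading frames (ORFs) of the budding yeast Saccharomyces cerevisiae that have only a systematic name differed by 0.6 or more on the log2 scale between cells with and without glycolaldehyde. Of these, 50 were higher and 25 were lower in the glycolaldehyde samples. They were selected from the 864 ORFs on the array whose identifier has the plain systematic form (Y, a chromosome letter, L or R for the arm, a number, and W or C for the strand) and for which the reference gene table gives no standard name. The array carries 5969 ORFs of that form among 6225 gene identifiers. An ORF entered the set when its mean log2 level differed by 0.6 or more and when most of its spots were well above background on each of the 6 arrays, which 630 of the 864 were. The size and direction of the difference were therefore fixed by the selection, and every value of this contrast is given as a description.

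RNA was taken from 3 glycolaldehyde and 3 untreated cultures of strain BY4743, a laboratory strain known as a diploid with deletions in HIS3, LEU2 and URA3. Glycolaldehyde, a small and reactive hydroxyaldehyde, was given at 10 mM to the glycolaldehyde cells and left out for the untreated cells. Both kinds of culture stood without shaking for 4 h at 30 °C, in a synthetic medium containing 2% glucose. The labels also read haploid for ploidy and anaerobic for growth, the growth protocol can be read as adding the aldehyde to the overnight culture too, and the free-text descriptions state the opposite treatment for each sample, so groups follow the titles and the treatment entries. The 3 replicates of a group come from independent starter cultures, each on its own single-colour array. URA3, LEU2 and HIS3 were above background on 0 of the 6 arrays, and all 10 mating-type genes checked were above it on all 6.

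On each array 94.8% to 97.0% of the 6256 probes were above background, and saturation was marked for 0 spots. A level is given below as a percent of the array's 75th percentile, the intensity under which 75% of the probes on that array lie, and a difference is the mean log2 level in glycolaldehyde samples minus that in untreated samples. Levels are relative within an array, so fewer transcripts per cell and a change in the total RNA cannot be told apart. The array of a sample is recorded in 2 ways that conflict: for 3 of the 6 columns of the value table, the matching scanner file is attached to another sample, which moves 2 arrays between the groups. Values follow the value table, in which the selection was made, and counts and medians from the 4 arrays with the same group in both records are given beside those of the whole set, the lists, the neighbours and the annotation classes. Values of single ORFs follow the value table alone.

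The systematic name tells where an ORF lies and which strand it is read from, and a standard name is usually given once a function, a mutant phenotype or a product has been described. ORFs without one are a mixed class. Some encode proteins that resemble enzymes or transporters of known families, some are parts of repeated elements near the chromosome ends, and some were predicted from length alone and overlap a characterised gene. The last kind has in many cases been dropped from reference annotations. Of the 50 ORFs that were higher, 27 were listed in the RefSeq gene table and 23 were not. Of the 25 that were lower, 15 were listed and 10 were not.

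Among the 50 higher ORFs the median difference was 0.92 and the range was 0.61 to 2.21, with 21 at 1 or more. Among the 25 lower ORFs the median was -0.75 and the range was -1.78 to -0.60, with 6 at -1 or below. Over all 5877 genes above background on all 6 arrays the median difference was 0.03, and 5.09% were higher and 5.29% were lower by 0.6 or more. In the limma fit all 50 higher ORFs were called at a Benjamini-Hochberg adjusted p under 0.05, where 29.6% of the 5944 genes tested were called in that direction. All 25 lower ORFs were called, where 23.5% of the genes tested were called lower. With the scanner files grouped as they are attached, limma called 0 of the 75 and 0 of 5924 genes (smallest adjusted p = 0.92), with 134 genes at an unadjusted p under 0.05. On the 4 arrays with the same group in both records 74 of the 75 were called, where 2885 genes were called in either direction. The share of the genes tested that this makes up was not counted for those arrays. In all 75 ORFs the glycolaldehyde arrays and the untreated arrays did not overlap, which also held for 60.9% of the genes tested. The selection used this contrast, so nothing is read from these counts. The median SD between arrays of a group was 0.11 among the higher and also 0.11 among the lower ORFs.

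**Figure D1:**
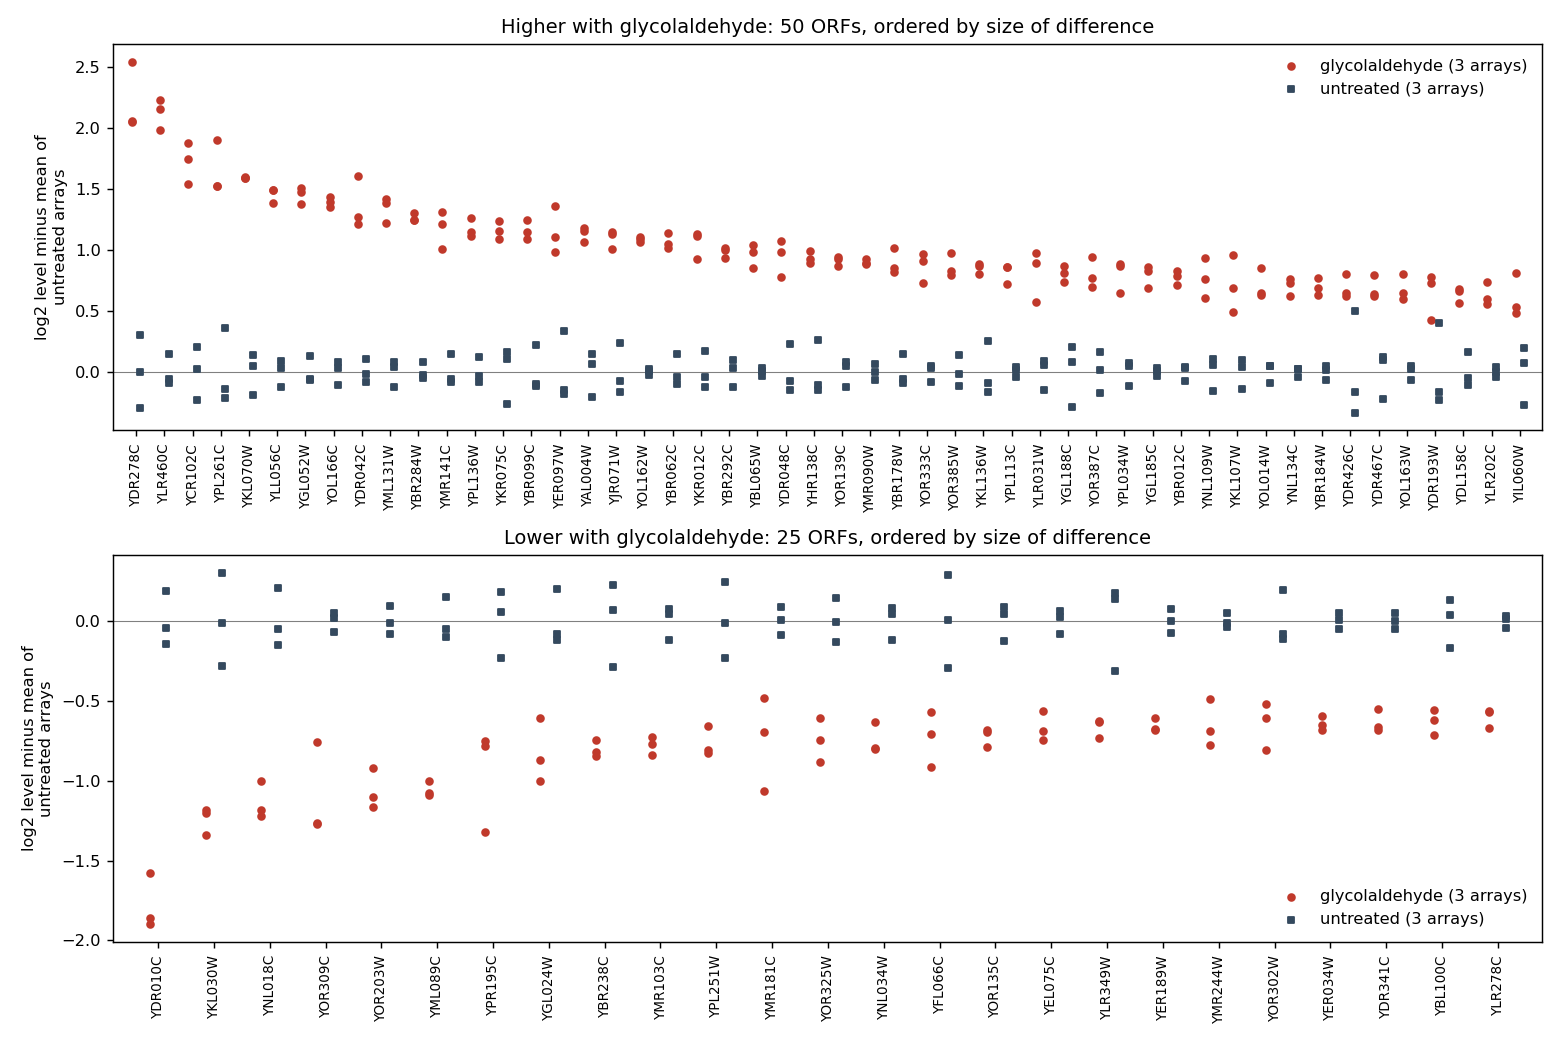
Each column is 1 unnamed ORF, and each point is 1 array: its log2 level minus the mean log2 level of the 3 untreated arrays (vertical axis). Glycolaldehyde arrays are round points, untreated arrays are squares, and the upper and lower panels hold the 50 higher and 25 lower ORFs in order of size. The points of the groups stay apart in every column, with the narrowest gap, 0.0264, at YDR193W.

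At the threshold, the smallest differences inside were 0.61 for YIL060W, 0.63 for YLR202C and 0.64 for YDL158C. The nearest unnamed ORFs outside were YOR062C at 0.5995, YDL096C at 0.58 and YDR248C at 0.58. On the lower side the innermost members were YLR278C, a zinc-cluster protein, at -0.60, YBL100C at -0.63 and YDR341C, the cytosolic arginyl-tRNA synthetase, at -0.63. Just outside lay YLR198C and YPL068C at -0.59 each and YGR079W at -0.58. Members near the threshold are thus not set apart from their neighbours in size.

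Of the lists examined, putative oxidoreductases held the most members, and all of these were higher with glycolaldehyde. Some reductases of such families use NADH or NADPH to turn aldehydes into alcohols. Yeast is known to detoxify the aldehydes of plant biomass hydrolysates in this way. The list rests on similarity, and the activity of its members was not measured here. A list of 16 ORFs with similarity to dehydrogenases or reductases was used, of which YIR035C (NRE1) and YNR073C (MAN2) now carry standard names and so are not unnamed ORFs. These 2 were called lower, with differences of -0.43 and -0.21. All of the other 14 were above background on all 6 arrays. The difference was 0.6 or more in 8 of these 14 and -0.6 or less in 0, and the median of the list was 0.71 against 0.03 over all 5877 genes. By comparison, 5.09% of those genes were higher and 5.29% lower by 0.6 or more. In the limma fit 13 of the 14 were called higher and 0 lower, and 13 and 2 of all 16 entries, whose median was 0.53. Over all genes tested 29.6% were called higher and 23.5% lower. On the 4 agreed arrays 8 of the 14 again reached 0.6, 10 were called higher and the median was 0.65. On those arrays 4.62% of the named ORFs were higher by 0.6 or more. Over all genes 2885 were called there in either direction, and the share called higher was not counted. With the files as attached 1 of the 14 reached 0.6, 0 were called and the median was 0.21. The list was drawn up with earlier results of these data known.

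YLR460C, which is similar to zinc-type alcohol dehydrogenases, had 64.7, 68.1 and 57.6% of the 75th percentile in glycolaldehyde samples, against 16.1, 13.6 and 14% in untreated samples. The difference was 2.12 ± 0.09 (moderated SE, n = 3 per group), or 4.35-fold. Every glycolaldehyde array was far above every untreated array, with a gap of 1.84 on the log2 scale. YCR102C encodes a similar protein of the same medium-chain dehydrogenase family. It had 12.3, 13.5 and 10.6% in glycolaldehyde samples, against 4.24, 3.73 and 3.13% in untreated samples, a difference of 1.72 ± 0.13. The groups did not overlap for this ORF either, and signal shared between the 2 similar genes was not separated.

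For YLL056C, a short-chain dehydrogenase for which aldehyde reductase activity has been described, levels were 27.9, 26.0 and 27.9% in glycolaldehyde samples, against 10.2, 10.6 and 9.13% in untreated samples. Its difference was 1.45 ± 0.07, and the glycolaldehyde values lay within a narrow band. YML131W, a medium-chain reductase also described as an aldehyde reductase, reached 478, 466 and 416% in glycolaldehyde samples, against 184, 189 and 164% in untreated samples. With a difference of 1.34 ± 0.08, or 2.53-fold, it was well above the spread between arrays. The gap between the groups was 1.14 on the log2 scale.

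The remaining oxidoreductase-like members had smaller differences, between 0.70 and 0.81. YPL113C, of the 2-hydroxyacid dehydrogenase family, had 13.2, 11.9 and 13.2% in glycolaldehyde samples, against 7.30, 7.02 and 7.43% in untreated samples, a difference of 0.81 ± 0.06. YGL185C, of the same family, had 38.3, 39.3 and 34.9% in glycolaldehyde samples, against 22.1, 21.8 and 21.1% in untreated samples, a difference of 0.79 ± 0.06. Both showed tight groups with a clear gap. YKL107W, a short-chain dehydrogenase reported to reduce glycolaldehyde among other aldehydes, had 2.98, 2.16 and 2.47% in glycolaldehyde samples, against 1.39, 1.57 and 1.64% in untreated samples. The groups of this ORF lay closer to each other than those of the other 7, with a gap of 0.39 and a difference of 0.71 ± 0.12. YNL134C, a medium-chain NADH-dependent aldehyde reductase, had 2186, 2140 and 1987% in glycolaldehyde samples, against 1311, 1310 and 1251% in untreated samples. Its difference was 0.70 ± 0.06 on a probe that was bright in all 6 samples.

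The other 6 ORFs of the list did not reach 0.6. YPL088W and YJR096W, both aldo-keto reductase-like, differed by 0.36 each, YDL124W, another of that kind, by 0.27, and YPR127W by 0.20. YDR541C and YGL039W belong to the dihydroflavonol reductase-like group and differed by 0.19 and 0.03. YGL039W was the one ORF of the 14 not called (adjusted p = 0.74 in limma). For comparison, 24 named genes of related families were listed, of which 23 were on the array under their names and above background. Among these, 9 were higher by 0.6 or more and 1, BDH2, was lower (-0.61), with a median of 0.52. Over all 5877 genes 5.09% were higher and 5.29% lower by as much. In the limma fit 17 were called higher and 3 lower, the latter being BDH2, AAD10 (-0.51) and BDH1 (-0.39). Over all genes tested 29.6% were called higher and 23.5% lower. The largest differences were those of ADH7 at 3.01, OYE3 at 2.22, AAD6 at 2.02 and OSI1 at 1.93.

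**Figure D2:**
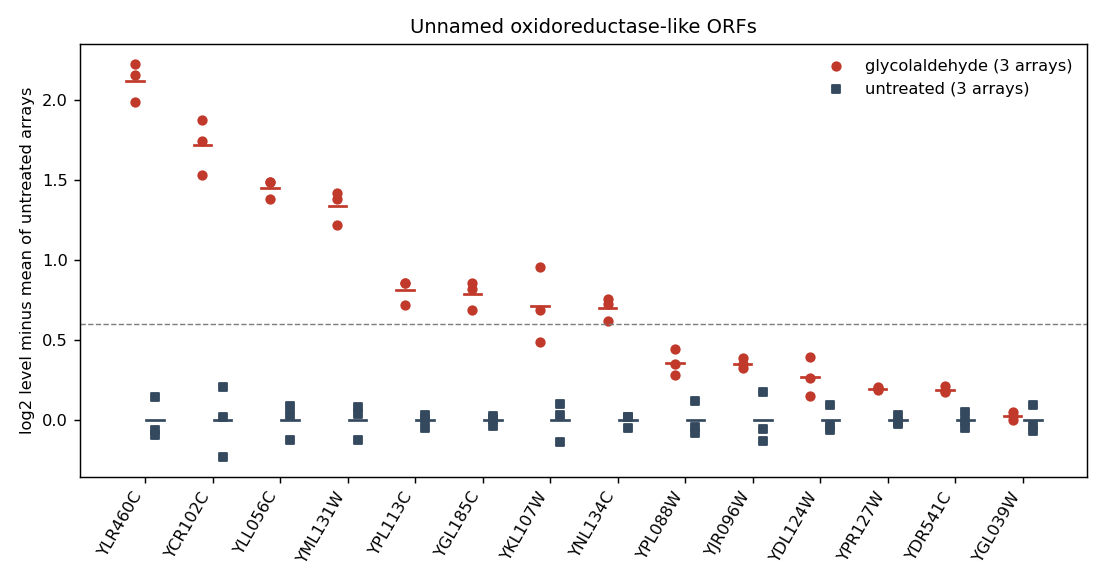
The 14 unnamed oxidoreductase-like ORFs are ordered by difference, with 1 point per array as its log2 level minus the mean of the untreated arrays (vertical axis), glycolaldehyde as round points and untreated as squares. Short lines are group means and the dashed line is the selection threshold of 0.6. The 8 ORFs from YLR460C to YNL134C have means above the line, and YGL039W at 0.03 overlaps its untreated arrays.

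Putative transporters gave fewer members. Of 19 listed ORFs with similarity to membrane transporters 8 now carry a standard name, and 10 of the other 11 were above background on all 6 arrays. Of these 10, 2 were higher by 0.6 or more, 0 were lower by as much, 4 were called higher and 1 lower, and the median was 0.04. By comparison, 5.09% of all 5877 genes were higher and 5.29% lower by 0.6 or more. The shares called, 40% higher and 10% lower, stand against 29.6% and 23.5% of all genes tested. On the 4 agreed arrays 1 of the 10 reached 0.6 and 2 were called higher, where 2885 genes were called in either direction. The share of all genes called higher was not counted for those arrays, where 4.62% of named ORFs were higher by 0.6 or more. With the files as attached 0 of the 10 reached 0.6 and 0 were called. The 2 members are adjacent genes on chromosome XV, YOL162W and YOL163W, which resemble the allantoate permease Dal5. YOL162W had 3.69, 3.73 and 3.62% in glycolaldehyde samples, against 1.74, 1.76 and 1.70% in untreated samples, a difference of 1.09 ± 0.05. YOL163W had 6.73, 6.04 and 5.86% in glycolaldehyde samples, against 3.99, 3.92 and 3.70% in untreated samples, a difference of 0.68 ± 0.07. The SE of YOL162W was the smallest of the 75.

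The most changed ORF was YDR278C, which is not listed in RefSeq. Its levels were 3.42, 3.39 and 4.80% in glycolaldehyde samples, against 0.671, 0.820 and 1.01% in untreated samples, a difference of 2.21 ± 0.18 or 4.64-fold. The highest untreated array stayed well below the lowest glycolaldehyde array. With the normexp background correction the difference of YDR278C was 1.67, below the 2.06 of YLR460C. YPL261C, of no assigned role here, had 1.16, 1.16 and 1.51% in glycolaldehyde samples, against 0.365, 0.347 and 0.517% in untreated samples, a difference of 1.65 ± 0.17. It was dim, with 39 of its 42 spots over the 6 arrays above background, and its difference with the normexp background correction was 0.89. YKL070W had 6.28, 6.27 and 6.27% in glycolaldehyde samples, against 2.15, 2.29 and 1.83% in untreated samples, a difference of 1.59 ± 0.08. Here the glycolaldehyde arrays were almost identical and the spread lay among the untreated ones.

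YGL052W had 5.77, 5.37 and 5.89% in glycolaldehyde samples, against 1.98, 1.97 and 2.27% in untreated samples, a difference of 1.45 ± 0.07. YOL166C had 1.26, 1.34 and 1.30% in glycolaldehyde samples, against 0.506, 0.525 and 0.460% in untreated samples, a difference of 1.39 ± 0.07. Both are absent from the RefSeq table, and neither showed any overlap between groups. With normexp the difference of YOL166C was 0.77. YDR042C had 11.5, 11.1 and 14.6% in glycolaldehyde samples, against 4.73, 4.52 and 5.15% in untreated samples, a difference of 1.36 ± 0.11, with glycolaldehyde replicate 3 highest.

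YBR284W, which resembles the AMP deaminase Amd1 of purine metabolism, had 4.76, 4.76 and 4.96% in glycolaldehyde samples, against 2.12, 1.93 and 1.98% in untreated samples. Its difference was 1.26 ± 0.06. YMR141C completed the 12 largest, with 1.40, 1.22 and 1.5% in glycolaldehyde samples, against 0.581, 0.571 and 0.669% in untreated samples and a difference of 1.18 ± 0.10. In both ORFs the lowest glycolaldehyde value was far above the highest untreated value.

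The other higher ORFs lay between 0.61 and 1.17 and included several with a known relative. YKR075C, whose relative YOR062C lay just below the threshold, had a difference of 1.16. YBR062C, a RING-type ubiquitin ligase, had one of 1.07, with 69.2, 73.6 and 67.3% in glycolaldehyde samples, against 32.3, 31.1 and 36.9% in untreated samples. YHR138C, similar to the proteinase B inhibitor Pbi2, differed by 0.94, with untreated replicate 3 (166%) above the other untreated arrays (128 and 125%) and all 3 glycolaldehyde arrays between 258 and 276%. YMR090W, an NAD-dependent epimerase-like protein, differed by 0.90, and YOR385W, which resembles Dia1, by 0.86.

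The most strongly lower ORF was YDR010C, with 0.380, 0.462 and 0.370% in glycolaldehyde samples, against 1.57, 1.34 and 1.25% in untreated samples. Its difference was -1.78 ± 0.11, so untreated samples were 3.43-fold higher, and 39 of its 42 spots were above background. With normexp background correction its difference was -0.91, smaller in size than the -1.09 of YOR309C. YKL030W had 1.5, 1.48 and 1.34% in glycolaldehyde samples, against 3.36, 4.18 and 2.79% in untreated samples, a difference of -1.24 ± 0.14. Its untreated arrays spread widely but did not reach the glycolaldehyde ones. YNL018C had 0.901, 0.880 and 1.02% in glycolaldehyde samples, against 1.84, 2.36 and 1.98% in untreated samples, a difference of -1.14 ± 0.10. YNL034W encodes a protein similar to that of YNL018C and was also lower, by a difference of -0.74; shared signal was not separated.

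YOR309C, which overlaps the snoRNP gene NOP58, had 77.2, 54.4 and 54.0% in glycolaldehyde samples, against 132, 125 and 135% in untreated samples, a difference of -1.1 ± 0.13. Glycolaldehyde replicate 1 stood above the other glycolaldehyde arrays and below all untreated ones. YOR203W had 41.3, 39.6 and 46.8% in glycolaldehyde samples, against 87.9, 83.5 and 94.7% in untreated samples, a difference of -1.06 ± 0.08. YML089C had 0.404, 0.382 and 0.380% in glycolaldehyde samples, against 0.781, 0.754 and 0.898% in untreated samples, a difference of -1.06 ± 0.08. It was dim, with 39 of its 42 spots above background, and its difference with normexp was -0.48. These 3 ORFs are not listed in RefSeq.

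YPR195C had 1.07, 1.1 and 0.739% in glycolaldehyde samples, against 1.92, 2.10 and 1.57% in untreated samples, a difference of -0.96 ± 0.17. Replicate 3 was the lowest array of both groups. YGL024W had 2.73, 2.48 and 3.27% in glycolaldehyde samples, against 4.59, 4.70 and 5.72% in untreated samples, a difference of -0.83 ± 0.12, and here replicate 3 was the highest of both groups. YBR238C, which is similar to Rmd9, a factor of mitochondrial gene expression, had 8.58, 9.04 and 8.42% in glycolaldehyde samples, against 15.9, 17.7 and 12.4% in untreated samples, a difference of -0.81 ± 0.12.

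YMR103C had 46.0, 47.3 and 43.8% in glycolaldehyde samples, against 80.7, 82.5 and 72.0% in untreated samples, a difference of -0.78 ± 0.07. YPL251W had 0.997, 0.895 and 0.886% in glycolaldehyde samples, against 1.56, 1.86 and 1.33% in untreated samples, a difference of -0.76 ± 0.12. YMR181C closed the 12 largest, with 29.9, 38.5 and 44.6% in glycolaldehyde samples, against 62.5, 58.6 and 66.4% in untreated samples and a difference of -0.75 ± 0.14. The glycolaldehyde arrays of YMR181C differed more among themselves than its untreated arrays.

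A few other lower members have a known role, and these were picked after their values were seen. YDR341C charges tRNA with arginine, and had 288, 293 and 316% in glycolaldehyde samples, against 481, 463 and 449% in untreated samples. YOR302W encodes the attenuator peptide in the leader of CPA1, the arginine-specific carbamoyl-phosphate synthetase gene, and had a difference of -0.65. YEL075C, YER189W and YFL066C belong to the Y' repeat elements of the chromosome ends, with differences of -0.67, -0.66 and -0.73. Copies of these repeats are near-identical, so their values may hold signal of other copies.

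The genes next to the 75 ORFs in the order of systematic numbers were compared with them, counting a neighbour when it was above background on all 6 arrays. All 75 had at least 1 such neighbour, giving 140 pairs, 71 on the same strand and 69 on opposite strands. A neighbour with a difference of 0.6 or more in the same direction was found for 21 of 75 ORFs (28.0%), and one in the opposite direction for 5 (6.67%). The share with a same-direction neighbour was 33.3% (11 of 33) for members absent from the RefSeq table and 23.8% (10 of 42) for listed ones. It was 17.4% (88 of 507) for named genes past the same threshold. Taking all 5624 plain ORFs with a measured neighbour, 10.8% had one higher or lower by 0.6 in the direction of their own difference. Over the 140 pairs, Pearson's r between the differences was 0.32, with 0.42 in the 63 pairs of unlisted members and 0.25 in the 77 pairs of listed ones. The member of each pair was selected past 0.6, which widens the range on that side. No r was computed for other adjacent genes, so these values are a description only. The pairs share arrays, most ORFs enter 2 of them, and YOL162W with YOL163W is counted from each side. There are thus 139 distinct pairs, 20 of them past 0.6 in the same direction, with r = 0.32. On the 4 agreed arrays 15 of the 75 ORFs had a neighbour past 0.6 in their own direction, both being past it, and with the files as attached 0 had.

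Among the higher ORFs, YDR278C lies next to MTH1, a regulator of glucose-transporter genes (0.79), and YKL070W next to OSI1, an oxidoreductase gene (1.93). YML131W lies beside ERO1, the thiol oxidase of the endoplasmic reticulum (0.89), and YDR426C beside RPN9, a proteasome subunit (0.83). YBL065W is next to PRX1, a mitochondrial peroxiredoxin (0.99), but its neighbour on the other side, SEF1, was lower (-0.76). YAL004W overlaps SSA1, a cytosolic Hsp70, on the opposite strand. It had 4.45, 4.20 and 4.55% in glycolaldehyde samples, against 1.74, 2.21 and 2.09% in untreated samples, where SSA1 had 423, 436 and 421% in glycolaldehyde samples, against 263, 309 and 257% in untreated samples. The differences were 1.13 and 0.63. Also in the same direction were YGL052W with PRM8 (0.61), YKR075C with ECM4 (0.62), YKR012C with FPT1 (0.77), YMR090W with YTA12 (0.64), and the pair YOL162W and YOL163W.

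Among the lower ORFs, YKL030W overlaps MAE1, the mitochondrial malic enzyme. MAE1 had 201, 208 and 224% in glycolaldehyde samples, against 565, 633 and 548% in untreated samples, a difference of -1.46 beside the -1.24 of YKL030W. YPR195C lies next to OPT2, an oligopeptide transporter gene (-1.59), YOR302W next to CPA1 (-1.11), and YOR309C overlaps NOP58 (-1.01). YPL251W lies next to YAH1, a mitochondrial ferredoxin (-0.92), YMR181C next to RGM1 (-0.89), YMR103C next to YPK2, a protein kinase gene (-0.83), YOR203W next to DED1, an RNA helicase gene (-0.77), and YBL100C next to ATP1 (-0.62). Among all pairs, those given as next to or beside each other were not checked for overlap. Probe sequences were not compared, so signal from an overlapping or adjoining transcript was not separated from that of the ORF.

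The opposite direction occurred beside YDR010C, whose neighbour SNQ2, a multidrug transporter gene, was higher by 0.92. SNQ2 had 564, 582 and 564% in glycolaldehyde samples, against 311, 297 and 298% in untreated samples. YGL185C was higher while STR3, of methionine and cysteine metabolism (-1.36), and TPN1, a vitamin B6 transporter gene (-0.71), were lower on its flanks. YBR292C stood beside CTP1, the mitochondrial citrate carrier (-0.83), and YML089C was lower beside UFO1 (0.63).

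**Figure D3:**
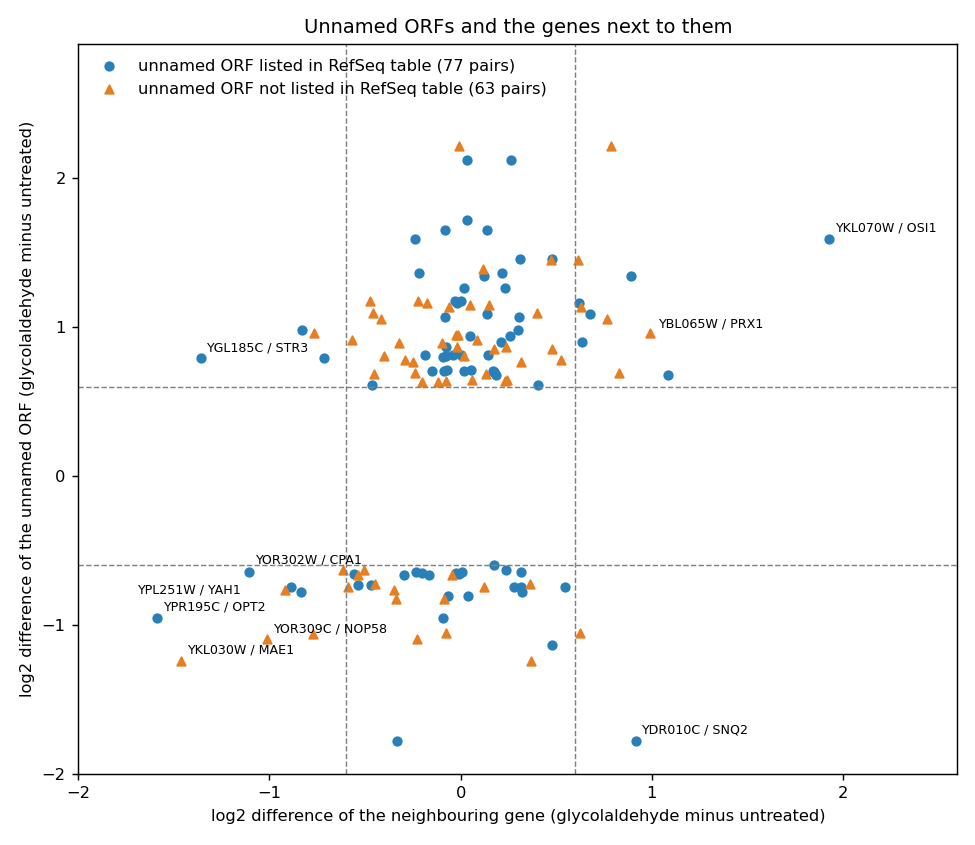
Each point is a pair of an unnamed ORF (vertical axis, log2 difference of glycolaldehyde minus untreated samples) and the gene next to it (horizontal axis, the same difference), with round points for the 77 pairs of RefSeq-listed ORFs and triangles for the 63 pairs of unlisted ones. Dashed lines mark 0.6 and -0.6, so the empty middle band is set by the selection. In 20 distinct pairs both lie past the lines in the same direction (YOL162W with YOL163W is drawn from each side), and YDR010C with SNQ2 lies in the opposite corner.

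The shares of ORFs past the threshold were counted by annotation, with no test of the differences between classes. Among unnamed ORFs absent from the RefSeq table, 55.1% (218 of 396) were above background on all 6 arrays, and of these 10.6% were higher and 4.59% were lower by 0.6 or more. Among unnamed ORFs in the table, 88.0% (412 of 468) were above background, with 6.55% higher and 3.64% lower. Of 5045 named ORFs above background, 4.70% were higher and 5.43% lower. Taking both directions, the shares were 15.1% for unlisted, 10.2% for listed and 10.1% for named ORFs. On the 4 agreed arrays 11.5% of the unlisted, 8.25% of the listed and 4.62% of the named ORFs were higher by 0.6 or more, and with the files as attached 1.83%, 0.485% and 0.178% were. The lower shares, in the same order, were 5.05%, 5.34% and 6.11% on the 4 arrays. With the files as attached they were 0.459%, 0.243% and 0.872%. These classes also differ in brightness, and the part of that in the shares was not tested. With the normexp background correction 35 of the 50 higher members still reached 0.6, and most of those that fell below it were unlisted. Shares by class were not recomputed with that correction.

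**Figure D4:**
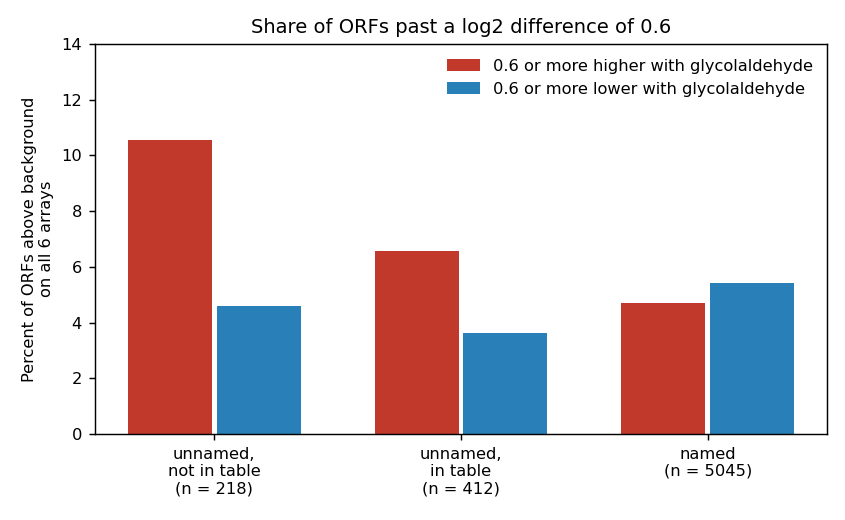
Bars give the percent of ORFs that were higher (left bar of each pair) or lower (right bar) by 0.6 or more with glycolaldehyde, among ORFs above background on all 6 arrays, for 218 unnamed ORFs not in the RefSeq table, 412 unnamed ORFs in it and 5045 named ORFs. The higher share is 10.6% in the first class and 4.70% in named ORFs, and the lower share lies between 3.64% and 5.43% in all 3.

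Many members were dim. The intensity on the dimmest array was under 100 for 16 of the 50 higher and 7 of the 25 lower ORFs, and the brightest array was under 1000 for 32 and 16. All 42 spots over the 6 arrays were above background for 45 of the higher and 22 of the lower ORFs. Spots of a probe on 1 array had a median SD of 0.0829 on the log2 scale, between 0.0390 and 0.251 among members. With the normexp background correction in place of the deposited signal, which adds 50 to every spot, the medians shrank to 0.77 and -0.60 while every member kept its sign, and 35 of the 50 and 14 of the 25 still reached 0.6.

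A further 52 unnamed ORFs passed the difference but were not above background on every array and are not members. Of these, 3 were above background on all 3 glycolaldehyde arrays and no untreated one, and 2 were the reverse. They are named here because they were so few, after their values were seen. Their direction was set by the group in which they passed the filter, so nothing is read from it. YBR064W had 0.433, 0.436 and 0.460% in glycolaldehyde samples, and was not well above background in untreated samples (0.142, 0.115 and 0.184%). For a fold value, each dim array took its own value or the lowest above-background signal of that array, whichever was greater. That signal is the lowest of any probe above background, so the fold is not a strict lower bound. YLR322W was at least 1.80-fold and YML084W at least 1.67-fold higher in glycolaldehyde samples by the same measure, in which each dim array takes its own value or the lowest above-background signal of that array, whichever is greater. YGR139W and YJR154W were 1.41-fold and 1.37-fold higher in untreated samples by the same measure. YGR139W had 0.268, 0.690 and 0.351% in untreated samples, against 0.224, 0.243 and 0.187% in glycolaldehyde samples, so untreated replicate 2 stood far above the others. YJR154W had 0.442, 0.449 and 0.298% in untreated samples, against 0.249, 0.241 and 0.148% in glycolaldehyde samples. The 6 ORFs whose names carry a letter suffix and that otherwise meet the criteria were led by YKL165C-A at 1.1 and ended with YMR316C-B at -0.70.

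The arrays were scanned on 2 days, and by the value table day 2 holds replicate 3 of both groups. By the files as attached, both day 2 arrays are glycolaldehyde samples (replicates 2 and 3). The differences within a day therefore hold only under the value table. Within day 1, with 2 arrays per group, the median difference was 0.96 for the higher and -0.79 for the lower ORFs. Within day 2, with 1 array per group and so no replicates, the medians were 0.87 and -0.72. All 75 kept their direction on both days. The selection used the arrays of both days, so direction and size within a day were largely set in advance. A difference of 0.6 or more was reached by 49 of the 50 higher ORFs on day 1 and 44 on day 2, and by 24 and 18 of the 25 lower ones. The smallest difference on day 2 was 0.30, for YDR426C, whose untreated replicate 3 (0.738%) lay above the other untreated arrays (0.467 and 0.414%) and near its glycolaldehyde arrays (0.805, 0.819 and 0.911%).

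**Figure D5:**
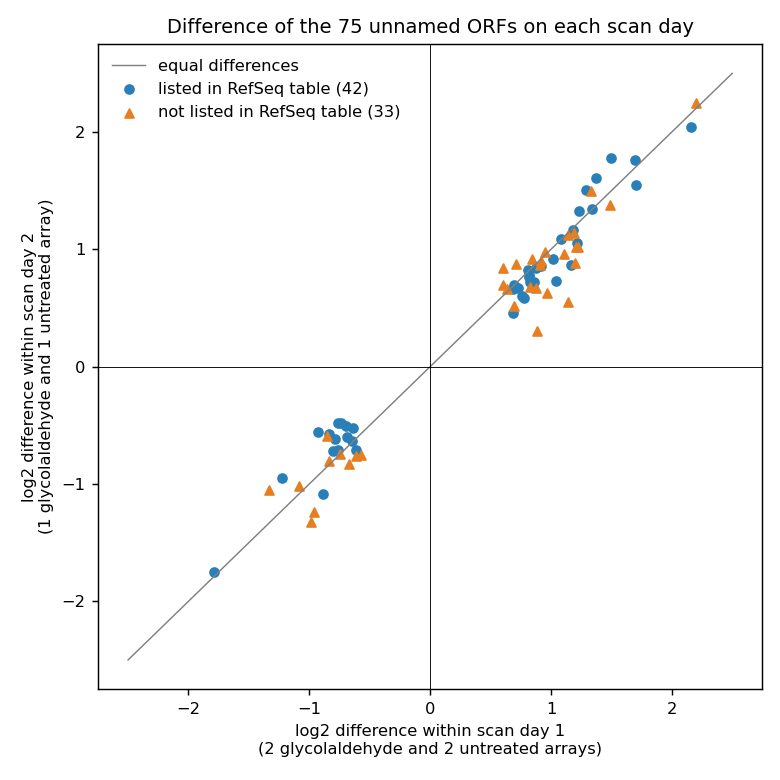
Each point is 1 of the 75 unnamed ORFs, with its log2 difference (glycolaldehyde minus untreated) within scan day 1 on the horizontal axis and within scan day 2 on the vertical axis, round for the 42 listed in RefSeq and triangular for the 33 not listed. The line marks equal differences. Groups follow the value table, and the selection used the arrays of both days. All points lie in the upper right or lower left quadrant, with medians of 0.96 and 0.87 for the higher ORFs and -0.79 and -0.72 for the lower ones on day 1 and day 2.

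On the 4 arrays whose group is the same in both records, all 75 ORFs kept their direction, with medians of 0.99 for the higher and -0.71 for the lower ones, and 46 of 50 and 21 of 25 still reached 0.6. These 4 arrays also entered the selection, so nothing is read from these counts. By the value table they are glycolaldehyde replicates 2 and 3 and untreated replicates 1 and 2. Only glycolaldehyde replicate 3 among them was scanned on day 2, so scan day is not balanced between their groups. With the scanner files grouped as they are attached, the medians were 0.39 and -0.25, and 5 of 50 and 2 of 25 reached 0.6. In that grouping 49 of 50 and 24 of 25 kept their sign. The exceptions were YDR193W at -0.03 and YMR181C at 0.02.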

How the data were processed

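Per the labels' protocols, total RNA was amplified and labelled with Cy3. Feature Extraction by Agilent, per the file headers, gave the authors a background-subtracted intensity per spot on a linear scale (version 11.0.1.1). The submitters' processing notes also list R 3.0.2, with no step attached to it. Each column of the deposited value table equals the mean processed intensity of a probe's 7 spots on 1 array (relative tolerance 1e-06), uncentred and with no scaling between arrays. It was turned into log2 of the value minus log2 of the column's 75th percentile. A probe counted as above background on an array when over 0.5 of its spots were marked so. For the 29 identifiers with several probes the brightest was kept; no member has several. Names come from the RefSeq table (assembly R64), which matched 5750 probes; the design also named a gene name column of the array files, which those files do not have. The array's own build differs, so no coordinates are given, and neighbours are the adjoining systematic numbers.

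All genes above background on all 3 arrays of a group were fitted with limma 3.58.1 in R 4.3.3 (lmFit and eBayes, treatment as the only term, two-sided, Benjamini-Hochberg over 5944 genes); SE is moderated. The fit was tested on simulated data. Same-numbered arrays correlated in their deviations from group means with 0.329, 0.408 and 0.623 over 5877 genes. Arrays of different numbers were not compared in this way. By the value table replicate 3 of both groups shares a slide and a scan day. Pairing of replicates and a shared slide or day thus cannot be told apart. The fit behind each SE has no replicate, slide or scan-day term. The 12 largest members per direction, list members, the 3 on each side of the threshold and neighbours were named by rule. Other lower and higher members, and pairs with a known relative, were picked after their values were seen. The members and lists were chosen with earlier results of these data known. No probe, promoter or protein sequences were used here, so the planned motif counts were not made. Every table column has a sample, and 0 have none.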

Additional observations from a re-analysis of the deposited data

How the results depend on the processing

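The planned reading of standard names from the array files was not run, since these have no such column. The number of ORFs meeting the criteria was 75 as reported, 49 with normexp, 127 with no background filter, 8 with the scanner files as attached, 128 at a threshold of 0.5, 27 at 1, 42 among RefSeq-listed ORFs, and 81 with suffixed names, an alternative chosen after seeing the data. Medians of the 75 were 0.77 and -0.60 with normexp and 0.39 and -0.25 with the files as attached. In that last grouping limma called 0 genes and 0 of the 75 ORFs (smallest adjusted p = 0.92), with 134 of 5924 genes and 0 of the 75 at an unadjusted p under 0.05. The cause of these shifts was not tested, apart from those that follow from the changed criterion. The replicate block called 3904 genes, against 3158 without it, and all 75 ORFs. Leaving out 1 array gave 2490 to 3378 genes, 73 to 75 ORFs called, 72 to 94 ORFs meeting the criteria, and medians of 0.88 to 0.97 and -0.77 to -0.69. YDR193W lost its call without glycolaldehyde replicate 1 or 2 or untreated replicate 1 (adjusted p = 0.054, 0.050 and 0.051), and YDR426C without glycolaldehyde replicate 3 or untreated replicate 1 or 2 (0.059, 0.060 and 0.056). With normexp YDR193W, YIL060W and YLR349W were lost (0.107, 0.076 and 0.057), without outlier spots YLR349W (0.080), and on the 4 agreed arrays YDR193W (0.097). Quantile and median scaling and slide as a block left all 75 called, among 3235, 3145 and 3599 genes called. Precision is limited by having 3 arrays per group.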
